A study of Mus musculus with 8 samples.

Results

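The 10 tubulin isotype genes described here are the α-tubulin genes Tuba1a, Tuba1b, Tuba1c and Tuba4a and the β-tubulin genes Tubb2a, Tubb2b, Tubb3, Tubb4b, Tubb5 and Tubb6. They were taken by name from the 27179 genes of the expression table and from the 4 lists of m6A peaks. All 10 had a value in every RNA-seq library and all passed the filter on low values that left 11406 genes for testing. The cells were C2C12 myoblasts, an established mouse line of muscle precursor cells, grown on collagen. GM cells were proliferating in high glucose DMEM with 10% fetal bovine serum. 3d DM cells had been grown to near confluence and then kept for 3 days in the same base medium with 2% horse serum, in which C2C12 cells leave the cell cycle and fuse into myotubes. No gene was edited and no drug was given in either state. Each state had 2 input libraries, which are poly(A) RNA-seq, and 2 libraries of RNA immunoprecipitated (IP) with an antibody to m6A (N6-methyladenosine), the methyl mark most often found inside mRNAs.

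Microtubules are polymers of heterodimers that hold 1 α-tubulin and 1 β-tubulin. They form the spindle of dividing cells and, when myoblasts differentiate, they are rearranged from arrays centred on the centrosome into lines along the myotube. Each tubulin comes in several isotypes, encoded by separate genes, which differ mostly in the acidic tail at the end of the protein. Free tubulin also controls its own mRNA. When soluble tubulin is in excess, the factor TTC5 recognises the first residues of a nascent tubulin chain on the ribosome and the mRNA is degraded.

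The last 30 coding bases are shown for 8 of the genes, since this is where the isotypes part most. Coordinates and strand are from mm10 with the GENCODE M21 transcripts. Capitals mark the last amino acid codon and the stop codon.
Tuba1b (chr15:98931582-98931611, minus strand): gagggggaggaagaaggagaggagTACTAA
Tuba1c (chr15:99037980-99038009, plus strand): gaaggagacgatgagggtgaggaaTATTAA
Tuba4a (chr1:75215622-75215651, minus strand): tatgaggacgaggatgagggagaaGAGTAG
Tubb2a (chr13:34074468-34074497, minus strand): gaggaggaggagggtgaagatgagGCTTGA
Tubb2b (chr13:34127471-34127500, minus strand): gaggaggaagagggcgaggatgagGCTTGA
Tubb3 (chr8:123421653-123421682, plus strand): gaggaatcggaagcccaggggcccAAGTGA
Tubb4b (chr2:25222308-25222337, minus strand): gaggaggaggctgaggaggaggtgGCTTAG
Tubb5 (chr17:35834982-35835011, minus strand): ttcggagaggaggcagaagaggagGCCTAA
Tuba1b and Tuba1c end in a codon for tyrosine, the residue that carboxypeptidases remove from α-tubulin and that tubulin tyrosine ligase adds back. Tuba4a ends in a codon for glutamate, so its chain carries no encoded terminal tyrosine.

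The genes differ in how far their reads can be told apart. Over the coding sequence Tuba1a and Tuba1b were 98.3% identical, Tuba1b and Tuba1c 98.0%, and Tubb2a and Tubb2b 96.5%. The other pairs of β genes were 80.7% to 86.2% identical. A stretch of 50 bases taken from the longest transcript was also present in a transcript of another gene for 72.9% of positions in Tuba1a, 73.8% in Tuba1b, 61.0% in Tuba1c, 49.6% in Tubb2a and 39.3% in Tubb2b. For Tubb4b it was 50.9%, most of it shared with the pseudogene Tubb4b-ps1. For Tuba4a it was 1.11%, for Tubb5 0.115%, and for Tubb3 and Tubb6 no such stretch was found. The values of Tuba1a, Tuba1b, Tuba1c, Tubb2a, Tubb2b and Tubb4b are therefore uncertain as values of single genes, while those of Tuba4a, Tubb3, Tubb5 and Tubb6 are nearly free of such sharing.

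Both states carried the markers of their labels. Myh3, an embryonic myosin heavy chain, was at 1068 and 273 in GM against 33485 and 51674 in 3d DM, and all 5 differentiation markers were higher in 3d DM in the limma fit. GM replicate 1 thus held more Myh3 than GM replicate 2, and the same held for Myog, the myogenic regulator of early differentiation, at 1008 and 221. Mki67, a marker of cycling cells, was at 3586 and 3659 in GM against 446 and 760 in 3d DM, and all 4 proliferation markers were lower in 3d DM. Of 3 reserve cell markers, 1 was lower in 3d DM and 0 were higher. Pax7, which marks satellite and reserve cells, was at 55.7 and 50.2 in GM against 51.5 and 77.8 in 3d DM. The expression columns sum to nearly the same total, and a single entry takes 24.4% to 41.3% of it, with the highest share in 3d DM replicate 1. In these bulk samples, fewer cells of a type and less RNA per cell cannot be told apart. The depth of the libraries is unknown, since the table holds no counts.

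Of the 10 tubulin genes, 4 differed between 3d DM and GM in the limma test (adjusted p under 0.05), all of them β genes. Tubb6 rose, and Tubb3, Tubb4b and Tubb5 fell. The other 6 did not pass the test. Of all 11406 genes tested 17.0% passed, with 7.01% higher in 3d DM and 9.96% higher in GM. The GM and 3d DM values of the same 4 tubulin genes did not overlap, which was so for 53.8% of all genes tested. The median log2 change of the 10 genes was -0.22, the same as that of all genes. Proliferation and differentiation markers moved with the states in the same libraries, and their part in the tubulin changes was not tested.

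Tubb6, a β isotype with high levels in differentiating and regenerating muscle, had normalized values of 2357 and 2336 in GM against 5011 and 7091 in 3d DM. Both 3d DM libraries lay above both GM libraries, whose values were almost equal. Its mean was 2347 ± 14.7 in GM and 6051 ± 1471 in 3d DM (SD, n = 2), a 2.54-fold rise (log2 change 1.34 ± 0.41 SE, limma adjusted p = 0.00836).

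Tubb5, the β isotype that many dividing cells use most and that supports the spindle, was at 2318 and 2780 in GM against 659 and 1041 in 3d DM. Its mean was 2549 ± 327 in GM and 850 ± 270 in 3d DM (SD, n = 2), 3.06-fold higher in GM (log2 change -1.62 ± 0.42 SE, limma adjusted p = 0.00137). This was the largest change among the 10 genes with the deposited values, while relative to the median of all genes Tubb6, at 1.57, exceeded Tubb5, at -1.39.

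Tubb4b, a β isotype found in most tissues and in cilia, was at 3048 and 3476 in GM against 1157 and 1626 in 3d DM. The difference was 2.37-fold in favour of GM (log2 change -1.25 ± 0.42 SE, limma adjusted p = 0.0196). Tubb3, often used as a neuronal marker, was at 1334 and 1785 in GM against 486 and 778 in 3d DM. It was 2.51-fold higher in GM (log2 change -1.33 ± 0.43 SE, limma adjusted p = 0.015). In all 10 tubulin genes, Tubb6 included, the lower of the 3d DM values was that of replicate 1. This offset was not particular to the genes that fell. The median log2 ratio of a library's values to the gene means over the libraries (its median-of-ratios factor) was -0.37 for 3d DM replicate 1. It was 0.14 for 3d DM replicate 2.

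Of 6 neuronal markers, Rbfox3 was listed at 0 in all 4 libraries, and the highest value in any library was 0.75 for Snap25, 2.21 for Syt1, 2.40 for Elavl3 and 19.8 for Dcx, all of them in 3d DM. Nefl, the light neurofilament chain, was the exception, at 943 and 1200 in GM against 2.74 and 5.24 in 3d DM. The summed level of the 6 genes was 945 and 1204 in GM against 12.1 and 27.2 in 3d DM. Without Nefl the sum of the other 5 was higher in 3d DM, at 2.07 and 4.01 in GM against 9.32 and 21.9 in 3d DM. The part of either in the change of Tubb3 was not tested.

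**Figure D1:**
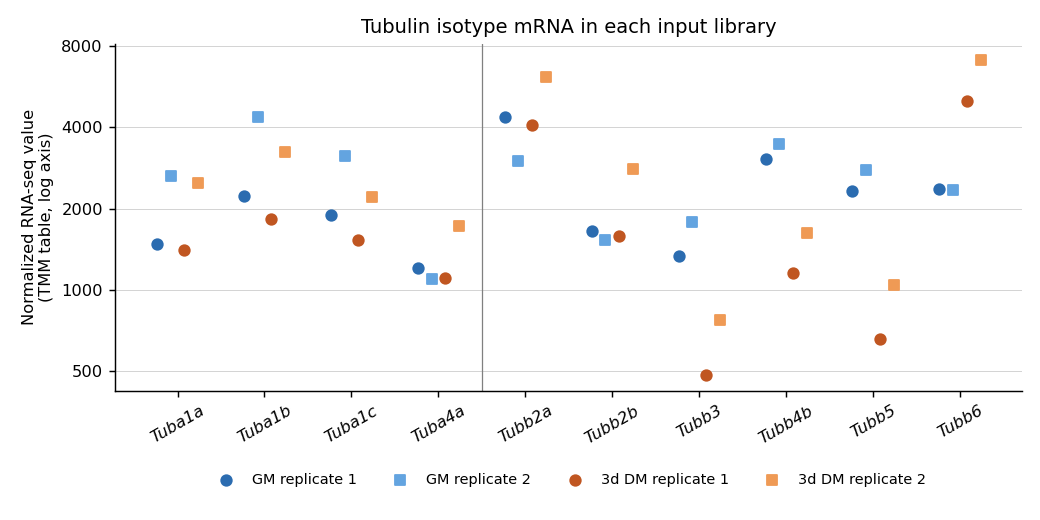
Normalized expression value (log axis) of the 10 tubulin isotype genes, with 1 point for each input library, circles for replicate 1 and squares for replicate 2, blue for GM and orange for 3d DM. The 3d DM points of Tubb6 (5011 and 7091) lie above its GM points, those of Tubb3, Tubb4b and Tubb5 lie below theirs, and the states overlap for the other 6 genes.

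The other β genes, Tubb2a and Tubb2b, did not pass the test. Tubb2a was at 4370 and 3002 in GM against 4081 and 6132 in 3d DM (log2 change 0.47 ± 0.41 SE, limma adjusted p = 0.534). Tubb2b, its close copy on the same chromosome, was at 1648 and 1533 in GM against 1585 and 2794 in 3d DM (log2 change 0.40 ± 0.42 SE, limma adjusted p = 0.616). In both genes 3d DM replicate 2 was the highest library and the other 3d DM library lay between the GM values. The pseudogene Tubb2a-ps2, which has its own row in the table, was at 30.5 and 24.1 in GM against 43.0 and 84.1 in 3d DM.

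None of the 4 α genes passed the limma test, and 0 had an unadjusted p under 0.05. Tuba1a, an isotype prominent in developing neurons, was at 1473 and 2635 in GM against 1401 and 2491 in 3d DM (log2 change -0.08 ± 0.42 SE, limma adjusted p = 0.943). Tuba1b, a widely expressed isotype, was at 2229 and 4359 in GM against 1822 and 3235 in 3d DM (log2 change -0.36 ± 0.41 SE, adjusted p = 0.662 in limma). Tuba1c was at 1885 and 3118 in GM against 1531 and 2204 in 3d DM (log2 change -0.40 ± 0.42 SE, adjusted p = 0.619 in limma). In these 3 genes the replicate 2 library exceeded the replicate 1 library in each state, by 0.53 to 0.97 on the log2 scale, more than the difference between the states. Tuba4a, an isotype of adult skeletal muscle and platelets, did not share that pattern, with 1207 and 1101 in GM against 1112 and 1726 in 3d DM (log2 change 0.27 ± 0.42 SE, limma adjusted p = 0.78).

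**Figure D2:**
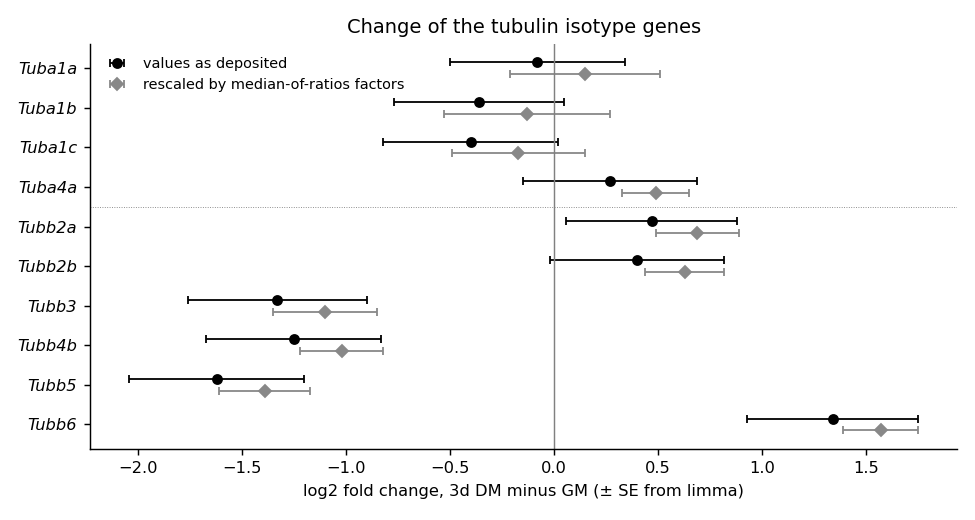
Log2 fold change (3d DM minus GM, bars ± SE from limma) of each tubulin isotype gene, as deposited (black circles) and after rescaling by median-of-ratios factors (grey diamonds). Tubb6 lies at 1.34 and Tubb3, Tubb4b and Tubb5 between -1.62 and -1.25 with the deposited values, and Tuba1a moves from -0.08 to 0.15 on rescaling.

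With the deposited values, the limma standard errors followed the trend over expression level and not a gene's own pair of replicates. The calls of Tubb3, Tubb4b, Tubb5 and Tubb6 held under every filter, pseudocount and scaling tried. Rescaling to a median change of 0 moved the log2 change of Tubb6 to 1.57 and that of Tubb5 to -1.39, and the share of all calls that were higher in 3d DM from 41.3% to 51.6%. The number of tubulin genes that passed fell from 4 to 0 without GM replicate 1, GM replicate 2 or 3d DM replicate 1, and to 1, Tubb5 (adjusted p = 0.0397 in limma), without 3d DM replicate 2. The log2 change stayed between 1.09 and 1.60 for Tubb6, between -1.94 and -1.29 for Tubb5, between -1.67 and -0.99 for Tubb3 and between -1.49 and -1.0 for Tubb4b. With the replicate number as a block, 1 gene passed, Tubb5 (limma adjusted p = 0.0336).

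The balance of isotypes was then described per length, as the value divided by the length of the gene's longest annotated transcript in kb. Within the 6 β genes, Tubb6 took 16.3% ± 0.222 of the summed value per kb in GM and 37.8% ± 1.39 in 3d DM (SD, n = 2). Tubb4b took 24.9% ± 2.81 in GM and 9.57% ± 0.399 in 3d DM. The share of Tubb5 was 11.8% ± 1.74 in GM and 3.49% ± 0.143 in 3d DM, and that of Tubb3 10.2% ± 2.29 and 3.67% ± 0.185. Tubb2a took 27.9% ± 6.78 in GM and 34.6% ± 0.191 in 3d DM, and Tubb2b 8.90% ± 0.278 and 10.8% ± 1.28. In none of the 6 β genes did the shares of the states overlap, although the values of Tubb2a and Tubb2b did. The shares within a library have a fixed sum, so a fall in some genes raises the shares of the others. The nearest shares of Tubb2a were 32.7% in GM replicate 1 and 34.5% in 3d DM replicate 1. Those of Tubb2b, in the same libraries, were 9.09% and 9.89%.

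By level per kb, the order in GM began with Tubb2a, at 2715 and 1864, and Tubb4b, at 1907 and 2175, which overlapped. Tubb6 followed at 1341 and 1329. Below it came Tubb5 at 875 and 1049, Tubb3 at 714 and 956 and Tubb2b at 755 and 703, each of which overlapped its neighbour in this order. In 3d DM, Tubb6, at 2850 and 4034, and Tubb2a, at 2535 and 3809, overlapped at the top. Tubb2b at 726 and 1280 overlapped Tubb4b at 724 and 1017. Tubb3 at 260 and 417 overlapped Tubb5 at 249 and 393 at the bottom. By this length, Tubb6 came after Tubb2a and Tubb4b in GM and was level with Tubb2a at the head of the β genes in 3d DM. The union of its exons is 2437 bases against 1758 for its longest transcript, while both are 1610 for Tubb2a. The level of Tubb6 relative to Tubb2a therefore depends on the length used.

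Within the 4 α genes Tuba1b had the highest and Tuba4a the lowest mean share in both states. Tuba1b took 39.5% ± 3.8 in GM and 36.2% ± 1.72 in 3d DM (SD, n = 2), Tuba1a 24.1% ± 0.813 and 26.9% ± 1.31, Tuba1c 27.0% ± 0.589 and 24.1% ± 2.43, and Tuba4a 9.39% ± 4.03 and 12.7% ± 0.604. The shares of Tuba1b overlapped between the states, and those of Tuba1a, Tuba1c and Tuba4a did not, although the values of all 4 genes did. These shares rest on genes whose sequences are largely shared. The summed value per kb of the α genes was 3472 and 5923 in GM against 2986 and 4957 in 3d DM. That of the β genes was 8307 and 8076 in GM against 7344 and 10950 in 3d DM. The ratio of the β to the α sum was 2.39 and 1.36 in GM against 2.46 and 2.21 in 3d DM, so that GM replicate 2 stood below the other libraries.

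**Figure D3:**
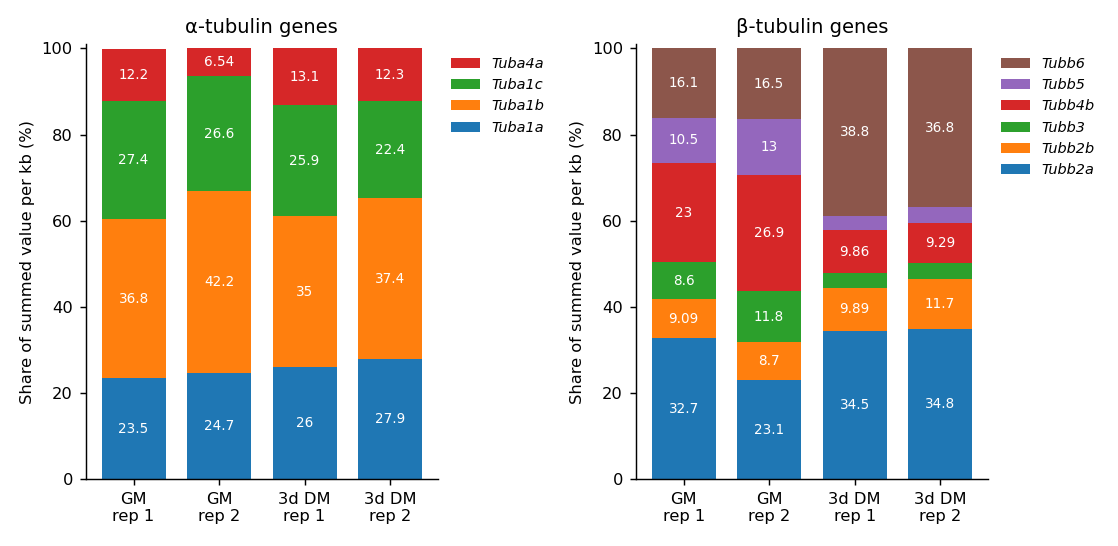
Share of each isotype gene in the summed normalized value per kb (%) of the α genes (left) and of the β genes (right), with 1 stacked bar for each input library. In the β panel the band of Tubb6 goes from 16.1% and 16.5% in the GM bars to 38.8% and 36.8% in the 3d DM bars, and those of Tubb4b, Tubb5 and Tubb3 narrow.

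The genes whose centred log2 values over the 4 input libraries lay nearest to those of Tubb6 were Fam174a (distance 0.0763), Mpi (0.0813) and Epm2aip1 (0.0969). Nearest to Tubb5 were Anp32b (0.0142), Xpo1 (0.0628) and Cav2 (0.0681). Anp32b, for example, was at 2992 and 3626 in GM against 861 and 1358 in 3d DM. With 4 libraries in 2 states, many genes lie close to any gene that changed.

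Other microtubule genes were examined in lists. Of the 8 other tubulins, Tuba3a, Tuba3b, Tuba8, Tubal3 and Tubb1 were listed at 0 in every input library and Tubb4a did not exceed 3.19. Tube1, the centriolar ε-tubulin, fell from 103 and 97.3 in GM to 13.3 and 26.2 in 3d DM (log2 change -2.36 ± 0.58 SE, limma adjusted p = 0.000648). Tubd1, the centriolar δ-tubulin, was at 66.2 and 58.2 in GM against 92.2 and 122 in 3d DM and did not pass (limma adjusted p = 0.39).

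Of 9 genes of the γ-tubulin ring complex that were tested, which nucleates microtubules, 0 were higher in 3d DM and 2 fell. These were Nedd1, its centrosome adaptor (log2 change -1.29, limma adjusted p = 0.0338), and Tubg1, γ-tubulin itself, at 807 and 744 in GM against 297 and 366 in 3d DM (log2 change -1.23, limma adjusted p = 0.0359). The median log2 change of the 9 genes was -0.76. Of all genes tested, 7.01% were higher in 3d DM and 9.96% higher in GM.

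Of 8 tested destabilisers and severing enzymes, 4 fell and 0 rose, against 9.96% and 7.01% of all genes tested. The median of the list was -1.1. Stmn1, which sequesters tubulin dimers, went from 3352 and 2016 in GM to 402 and 555 in 3d DM (log2 change -2.46, limma adjusted p = 2.17e-07). Its relative Stmn2 went from 1584 and 1169 to 424 and 298 (log2 change -1.93, limma adjusted p = 0.000132). Fignl1, an AAA ATPase related to the severing enzymes and known mainly for DNA repair, changed most, from 376 and 507 to 35.7 and 92.5 (log2 change -2.90, limma adjusted p = 7.21e-08). The fourth was Stmn4.

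Among 20 tested microtubule-associated and plus-end proteins 3 rose and 1 fell, against 7.01% and 9.96% of all genes tested. The median of the list was 0.15. Mapt, the tau protein that stabilises microtubules, was at 40.4 and 5.04 in GM against 152 and 156 in 3d DM (log2 change 3.29, limma adjusted p = 2.42e-07). Of the end-binding proteins, Mapre3, linked to myoblast fusion, was at 611 and 198 in GM against 809 and 939 in 3d DM (log2 change 1.32, limma adjusted p = 0.0199), while Mapre2 fell from 456 and 363 to 125 and 132 (log2 change -1.66, limma adjusted p = 0.00397). The GM values of Mapt and Mapre3 were higher in replicate 1, the GM library with more Myh3. With median-of-ratios rescaling 7 genes of this list rose and 2 fell. The same rescaling moved the calls over all genes from 800 to 1365 higher in 3d DM. Calls higher in GM went from 1136 to 1281.

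None of 22 genes of tubulin folding and mRNA autoregulation passed the limma test in either direction (median -0.42), with 2 lower in 3d DM at an unadjusted p under 0.05. Ttc5 was at 217 and 152 in GM against 121 and 204 in 3d DM. None of 15 tubulin-modifying enzymes passed it either (median -0.17), with 2 higher in 3d DM at an unadjusted p under 0.05. Ttl, the tyrosine ligase, was at 398 and 463 in GM against 325 and 447 in 3d DM. Under the 3 rescalings 2 modifying enzymes rose, and 2 folding genes fell when each column was scaled to its total without the largest entry. Over all genes, 2646 to 2787 passed under the rescalings, against 1936 without. The median over all genes tested was -0.22. The list counts leaned on each library. With any of the 4 input libraries left out, 0 genes of the γ-tubulin ring complex passed, and 0 to 3 destabilisers and severing enzymes fell, with 0 when 3d DM replicate 1 was left out. Of the associated and plus-end proteins, 2 rose without GM replicate 1 and 0 passed without any of the other 3 libraries. Tube1 passed except when 3d DM replicate 1 was left out.

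**Figure D4:**
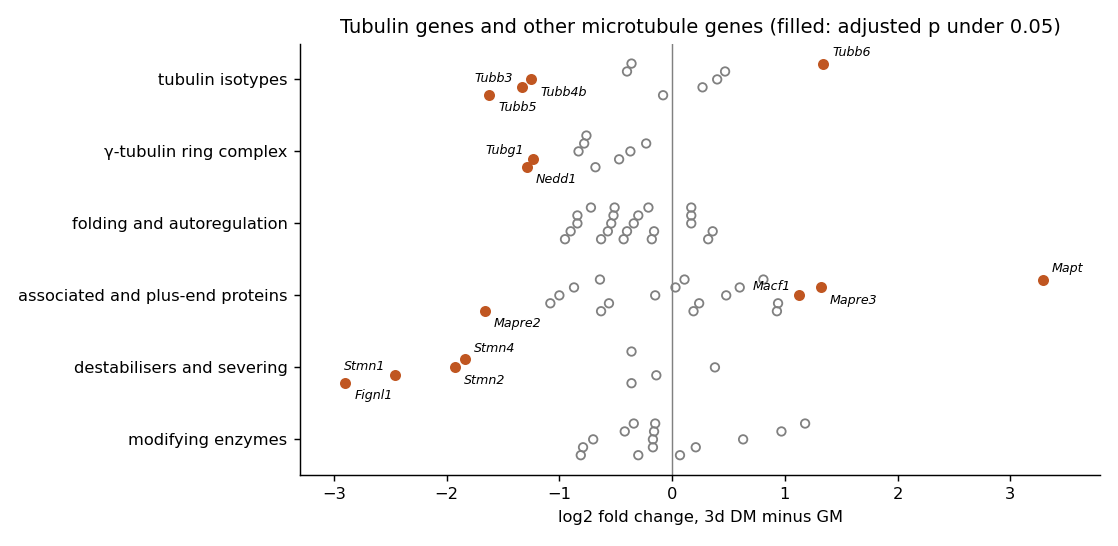
Log2 fold change (3d DM minus GM) of the tubulin isotype genes and of the tested genes in the microtubule lists, with 1 point for each gene, filled where the limma adjusted p is under 0.05. Filled points to the right of 0 are Tubb6, Mapt, Mapre3 and Macf1, and all other filled points lie to the left.

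Peaks of m6A were then examined on the tubulin mRNAs. A peak is a stretch of mRNA enriched in the IP over the input of the same sample, and its fold is that enrichment. In GM replicate 1 all 10 genes had a peak, in GM replicate 2 there were 9, in 3d DM replicate 1 there were 9, and in 3d DM replicate 2 again 10. Of the 10 genes, 9 had a peak in all 4 lists, against 42.6% of all tested genes with a symbol. The tubulin mRNAs are abundant, the part of abundance in this share was not tested, and the lists give no enrichment for a gene without a peak. The exception was Tuba1b, with peaks only in GM replicate 1 (fold 1.52) and 3d DM replicate 2 (14.2 on a stretch of 89 bases and 1.46 on another of 60 bases). The peak of fold 14.2 had a -log10 p of 3.5 from the peak caller. Every 50-base stretch in these parts of Tuba1b also occurs in other genes, so the peaks cannot be assigned to Tuba1b alone.

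Tubulin peaks had low folds, and the part of mRNA abundance in this was not tested. Lines of any list that overlap were merged into 1 place, whose fold in a list is the highest of its lines there. The median fold over tubulin places was 2.08 and 2.94 in GM against 2.13 and 3.38 in 3d DM. Over the places of all genes it was 4.67 and 4.26 in GM against 4.07 and 4.58 in 3d DM. Of the 10 genes, only Tuba4a and Tubb5 had places with folds that were above 3 in every list and reached 4 in 3 lists or more. The place on Tuba4a had folds of 4.83 and 6.88 in GM against 3.54 and 6.02 in 3d DM. It ran from far inside the coding sequence to just past the stop codon, and 1024 of its bases were under a peak in all 4 libraries. The main place on Tubb5, from position -663 in the coding sequence to 706 in the 3′ UTR relative to the stop codon, had nearly the same fold in each list, 4.77 and 4.94 in GM against 4.87 and 4.84 in 3d DM, although the input level of Tubb5 was 3.06-fold higher in GM.

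Places called in all 4 lists numbered 13, and 9 of them, 1 on each gene but Tuba1b, held the stop codon. Counting the stop codon of any annotated transcript, 10 of the 13 places held 1, against 52.7% of the 6021 places of all genes called in all 4 lists. In 7 of the 9 genes with a peak in every list the stop codon lay under a peak in each library, against 33.9% of 4939 such genes. In 3d DM replicate 1 the peaks of Tubb5 and Tubb6 left it out, the first starting 51 bases after it. The close copies Tubb2a and Tubb2b shared a further place upstream in the coding sequence, which ran from position -1145 to -549 relative to the stop codon in Tubb2a and from -1187 to -560 in Tubb2b. Its folds were 2.74 and 3.48 in GM against 2.36 and 3.18 in 3d DM for Tubb2a, and 2.71 and 3.74 in GM against 1.73 and 3.38 in 3d DM for Tubb2b. Of the 50-base stretches in these places, 50.9% in Tubb2a and 45.6% in Tubb2b also occur in other genes. Tubb3, which has no such stretch, had a place in the same part of the coding sequence, with folds of 2.08 and 1.80 in GM against 1.47 and 2.05 in 3d DM. Its 3d DM peaks were short, at 153 and 93 bases, and weak, with a -log10 p of 3.1 and 3.4 from the peak caller. Only 63 bases of this place were under a peak in all 4 libraries.

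**Figure D5:**
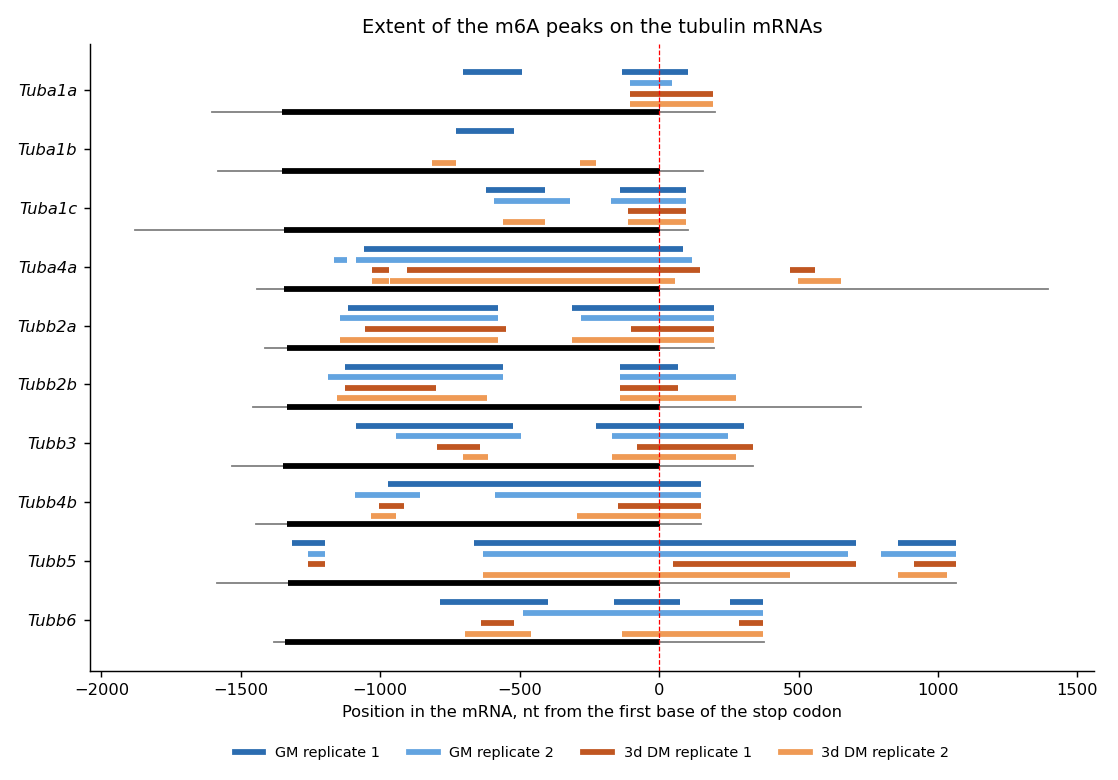
Extent of the m6A peaks on each tubulin mRNA, in bases from the first base of the stop codon (dashed line), with 1 row of coloured bars for each IP library and, under them, the transcript (thin grey line) with its coding sequence (thick black line). Bars cover the stop codon in all 4 libraries for 7 of the genes, and Tuba1b has bars in 2 libraries only.

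The folds of the tubulin peaks were compared between the states at the 13 places called in all 4 lists. At 0 of them were both GM folds above both 3d DM folds, which was so at 21.8% of the 6021 such places of all genes. At 2 of them were both 3d DM folds above both GM folds, against 9.25% of all. One was the stop codon place of Tubb3, at 2.62 and 2.01 in GM against 2.78 and 3.60 in 3d DM. The other was a place near the end of the 3′ UTR of Tubb5, at 1.89 and 1.58 in GM against 2.82 and 2.27 in 3d DM. Both gave p = 0.33 in the two-sided exact permutation test, the smallest p that 2 against 2 libraries can give. At the other 11 places the states overlapped. The median log2 change of the fold was -0.06 at the 13 tubulin places and -0.11 at all 6021. On Tubb6, whose mRNA rose, the place that held the stop codon was merged from separate peaks between positions -787 and 374. Its folds were 2.18 and 1.77 in GM against 1.52 and 2.16 in 3d DM. In 3d DM replicate 1 its peaks, from -638 to -519 and from 285 to 374, left out the stop codon. On Tubb4b the place that held the stop codon ran from position -1092 to 150, also merged from separate peaks. Its folds were 1.99 and 2.33 in GM against 1.53 and 2.78 in 3d DM. The folds on Tubb6 and Tubb4b are thus not those of a single stop codon peak.

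The length of mRNA under peaks was shorter in 3d DM on some genes. It was 1699 and 1640 bases on Tubb5 in GM against 867 and 1281 bases in 3d DM. It was 1125 and 977 bases on Tubb4b in GM against 386 and 535 in 3d DM, and 1098 and 866 bases on Tubb3 in GM against 569 and 539 in 3d DM. On Tubb6 it was 747 and 864 bases in GM against 210 and 746 in 3d DM, and on Tuba1c 452 and 541 in GM against 211 and 362 in 3d DM. These 5 of the 9 genes with a peak in all lists had less mRNA under peaks in both 3d DM libraries than in both GM libraries, against 28.7% of 4989 such genes. Tubb6 is counted among them on a near tie, 746 bases in 3d DM replicate 2 against 747 in GM replicate 1. On Tuba4a the length hardly varied, with 1147 and 1253 bases in GM against 1203 and 1238 in 3d DM. The median over all 4989 genes was 728 and 634 bases in GM against 688 and 450 in 3d DM. This measure was added after the peaks had been seen. The length is that of all windows past the caller's threshold, and the depth behind it is unknown.

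Sequence under the peaks was searched on the mRNA strand for GGAC followed by A, C or T, a frequent form of the m6A consensus. The windows printed here lie within the part of a place that was under a peak in all 4 libraries. Each holds such a match in capitals, with 12 bases on each side. A window present in more than 1 gene cannot by itself be assigned to 1 of them.
Tubb2a (chr13:34075347-34075375, minus strand): gctcaggcatggGGACCctgctcatcagc
Tubb2b (chr13:34128350-34128378, minus strand): gctcaggcatggGGACCctgctcatcagc
Tubb2a (chr13:34075451-34075479, minus strand): ggccgagctggtGGACTctgtcctagatg
Tubb2b (chr13:34128454-34128482, minus strand): ggccgagctggtGGACTctgtcctggacg
Tuba4a (chr1:75215921-75215949, minus strand): catccagtttgtGGACTggtgccccacag
Tubb3 (chr8:123420986-123421014, plus strand): acccacctatggGGACCtcaaccaccttg
The first pair of Tubb2a and Tubb2b windows is identical, and the second pair is not, although both lie in the same place of each gene. The windows of Tuba1a and Tuba1c, not printed, are identical and also occur in Tuba1b. In the parts under a peak in all 4 libraries, Tuba4a and Tubb2b had 5 GGAC matches of this form each. Tubb2a had 2, and Tubb3, Tuba1a and Tuba1c had 1 each. The main places of Tubb5, Tubb4b and Tubb6 had 0 in their common parts. These parts differed in length, with 1024 bases on Tuba4a, 90 on Tubb6 and 63 at the Tubb3 place with the match, so the counts do not compare the genes. With the wider DRACH consensus (any base but C, a purine, A, C, any base but G), 5 of the 10 genes had more matches per kb under peaks than in the rest of the transcript, among them Tubb4b with 25.7 against 5.63 per kb, and Tuba4a had fewer, 15.7 against 28.4.

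Promoter sequences from RefSeq (GRCm38.p6, 250 bases before to 50 bases after the start) were matched for 8 of the 10 genes, all but Tubb2b and Tubb6. On either strand, CCAAT was found in 5 of the 8, Tuba1a, Tuba1c, Tubb3, Tubb4b and Tubb5, against 37.4% of all promoters. GGGCGG was found in 7 of the 8, all but Tuba1c, against 35.7%. The 3 β genes that fell all held both motifs, as did Tuba1a, which did not pass the test. No promoter was matched for Tubb6, the gene that rose, and the share of all promoters with both motifs is not given. The part of the motifs in the changes was not tested. TTTGAA was found only in Tubb4b among the 8 (17.9% of all promoters) and CAGCTG only in Tuba1b (16.3%).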

How the data were processed

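RNA-seq of 4 input libraries and MeRIP-seq of 4 IP libraries were analysed, 2 for each of GM and 3d DM, grouped by their labels. Nothing in the labels says that replicates were separate cultures, so p-values measure the spread between these samples, which may be technical. In the main limma fit that spread is pooled over genes of like level and is not that of each gene. Per the labels, the authors made stranded poly(A) libraries, aligned reads to mm10 with HISAT2 (2.1.0) and used edgeR. The deposited expression table holds a TMM-normalized signal per Entrez gene. Its values are not whole and look like edgeR's adjusted pseudo-counts, so no count test was run and no counting error can be given. Each deposited peak list, called by the authors with exomePeak for each sample, gives a p-value and a fold (IP over input ratio) per line. How reads that match several genes were handled is not given in the sources used here.

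Symbols were matched for 93.0% of the 27179 genes. Expression was tested on log2(value + 1) with limma (3.58.1, R 4.3.3) with an intensity trend, keeping the genes that reached 2 cpm (25.1 in the table's units) in 2 or more input libraries, with Benjamini-Hochberg adjustment over all 11406 genes and a threshold of 0.05. Fold changes are on that log2 scale and are 3d DM minus GM. On simulated data with 200 genes changed 4-fold, 154 were recovered with 5 false calls. The simulated noise had the spread of the same fit, so the false calls do not check that spread. The planted change exceeded that of every tubulin gene, so recovery at their size was not simulated. Peak lines on 1 strand that share at least 1 bp were merged into places, each given the highest fold of its lines in each list. The folds of places were compared between states with an exact two-sided permutation test. Positions and sequences are from mm10 and GENCODE M21. Some sequences, those of Tubb6 among them, are not reported here. The genes named are all members, up to 3 genes with the largest change among those that passed in each list, all other tubulins, 4 state markers, and the 3 genes nearest to the members with the largest rise and fall. Ttc5, Ttl, Stmn4, Macf1, Nefl and the other neuronal markers were named after their values were seen. The members and lists were chosen with earlier results of these data known. Alternatives were other filters, pseudocounts, scalings, a replicate block, each library left out, other lengths, and stricter peaks.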

Additional observations from a re-analysis of the deposited data

How the results depend on the processing

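The count of tubulin genes that passed (4, with Tubb6 up and Tubb3, Tubb4b and Tubb5 down) was the same under both other pseudocounts, all 3 other filters, limma without the trend and all 3 rescalings. With the replicate number as a block (replicate block) it was 1, and 1298 genes passed in all. The numbers pair the libraries by name only, the deviations of same-numbered libraries correlated with r = 0.29, and with 2 pairs this cannot settle a pairing. With each library left out in turn, 0 to 1 tubulin genes and 145 to 1252 genes in all passed, against 1936, and 1250 genes passed when 2 cpm was asked for in all 4 libraries. The lone library of a state is then assumed to vary like the other state. Among genes that did not pass, the log2 change of Tuba1a was 0.15 with median-of-ratios and trimmed-mean scaling and 0.03 with the total without the largest entry. With 1 library left out it ranged from -0.50 to 0.34 for Tuba1a, -0.84 to 0.12 for Tuba1b, -0.05 to 0.58 for Tuba4a and -0.00 to 0.81 for Tubb2b. The mean share of Tubb6 among the β genes rose by 21.5 points with the longest transcript and by 18.2 with the union of exons. That of Tubb5 changed by -8.28 points, and by -11.8 without division by length. With a fold of at least 4, 1 tubulin gene and 1 place kept a peak in all lists, against 9 and 13. The number of places with a higher fold in every GM list was 0, and 0 to 9 with 1 IP library left out. The causes of these changes were not tested. Depth limits all values and is unknown.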
